A study of Mus musculus with 4 samples.

Results

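Psca and 5 of its Ly6 relatives, Ly6a, Ly6c1, Ly6c2, Ly6d and Ly6e, were taken by gene symbol as 6 of the 23337 genes measured in the hearts of mice with a cardiomyocyte deletion of PIMT. Psca was selected on its higher level in the deleted hearts at both ages, so that difference is given as a description with no test. The Ly6 genes were chosen as its relatives, to see whether they moved with it. PIMT, the product of Tgs1, is a coactivator-binding protein and RNA methyltransferase that trimethylates the cap of small nuclear RNAs.

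The control hearts were from PIMTfl/fl mice, whose Tgs1 alleles carry loxP sites around exons 3 and 4 and which have no Cre. The csPIMT-/- hearts carried the same floxed alleles together with Cre under the α-MyHC promoter, which acts in cardiomyocytes and starts to delete in late embryonic life. All mice were C57BL6/J and were 2 or 6 months old, and no group carried Cre without the floxed alleles. Each of the 4 groups was a single poly(A) RNA library made from RNA pooled from 5 hearts, of male and female mice, so there was no replicate of any group.

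Members of the Ly6/uPAR family share a small fold held together by disulphide bonds. Most are tethered to the outer cell surface by a glycosylphosphatidylinositol (GPI) anchor, and a few are secreted. Psca is known from epithelia of the prostate, bladder and stomach, whereas the Ly6 genes are best known as surface markers of blood cells, blood vessels and progenitor cells. In the mouse many of them lie side by side on chromosome 15.

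All 6 members lie within that cluster. On the GRCm38 build, Psca spans chr15:74714839-74717069 on the plus strand and Ly6e spans chr15:74955051-74959905 on the same strand. The others are on the minus strand, with Ly6d at chr15:74762056-74763620, Ly6a at chr15:74994877-74998031, Ly6c1 at chr15:75044018-75048830 and Ly6c2 at chr15:75108158-75111970. Ly6c1 and Ly6c2 are near copies, and 36.7% of the 50-base stretches of the Ly6c1 transcripts occur also in another gene, against 33.0% for Ly6c2 and 0% for Psca, Ly6d and Ly6e. Of the 906 such stretches of Ly6a, 91 occur elsewhere. Because the reads were 50 bases long, reads from shared stretches could not be placed in a single gene. The levels of Ly6c1 and Ly6c2, and the proportion between them, are therefore uncertain.

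The likeness of this pair reaches upstream of the genes. The 150 bases before each start are shown for Ly6c1 and Ly6c2, the members for which the RefSeq promoter table (GRCm38.p6) held a sequence. They are shown because the pair shares 50-base stretches of transcript and both had ratios above 1. Of 116 aligned positions 93 were identical, and capitals mark the bases that differ or are not aligned. The Ly6c1 stretch is chr15:75048838-75048987 and the Ly6c2 stretch is chr15:75111972-75112121, both on the minus strand and written 5′ to 3′.
Ly6c1: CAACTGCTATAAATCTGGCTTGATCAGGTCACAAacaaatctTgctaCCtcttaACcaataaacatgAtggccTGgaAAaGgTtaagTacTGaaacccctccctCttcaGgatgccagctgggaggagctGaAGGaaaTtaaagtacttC
Ly6c2: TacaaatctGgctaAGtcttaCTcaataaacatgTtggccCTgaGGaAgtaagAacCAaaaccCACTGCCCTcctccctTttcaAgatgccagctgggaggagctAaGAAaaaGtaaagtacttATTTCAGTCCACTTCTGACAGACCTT
The core motif of an interferon-stimulated response element, GAAA followed after 2 bases by a further GAAA, was searched on both strands of the full promoter windows of 250 bases before to 50 after the start. It was in neither of these 2 windows and in 3.44% of 32851 windows of the same length.

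The libraries held 39854713 and 40705783 reads in genes for the PIMTfl/fl hearts at 2 and 6 months, and 29823073 and 36172093 for the csPIMT-/- hearts. Tgs1, the targeted gene, had normalized counts of 580 and 816 in the control libraries and of 160 and 162 in the csPIMT-/- libraries, so the labels and the gene went the same way. All 8 cardiomyocyte markers were present in every library. Markers of other tissue differed between libraries, and their values are given after the members.

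Psca was one of the weaker members in the control hearts. In the csPIMT-/- hearts it had the highest value per kilobase of transcript, with no allowance for stretches shared between genes. Its reads numbered 137 and 58 in the control hearts at 2 and 6 months, and 7427 and 15735 in the csPIMT-/- hearts. As normalized counts these were 119, 51.0, 9157 and 16370. Both csPIMT-/- libraries lay far above both controls, and the 2 controls themselves differed, with the older one lower. The ratio of csPIMT-/- over PIMTfl/fl was 75.7 (95% counting interval 63.9 to 90.3) at 2 months and 313 (242 to 412) at 6 months. Counting intervals cover counting error only, not the spread between mice. Against the control of the other age the ratios were 174 and 135, so the larger ratio at 6 months went with the lower control.

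A gene entered a comparison when either of its libraries held 10 reads or more for it. Among these genes Psca ranked 43 of 15152 at 2 months and 1 of 15218 at 6 months, by ratios with 0.5 reads added to each library. Without that addition, genes with no control reads have no finite ratio to rank. These ranks describe the gene that was chosen and carry no test. Ratios rose with the GC content of transcripts across all genes, with Spearman's rho of 0.581 at 2 months and 0.607 at 6 months, a description over genes that share the same 2 libraries. With that trend subtracted the Psca ratios were 47.9 and 196.

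The 5 Ly6 relatives differed between genotypes by far less than Psca. Their ratios were above 1 at both ages for 5 of 5, but they ran only from 1.37 to 3.23 at 2 months and from 1.15 to 2.58 at 6 months. Their median was 2.10 at 2 months and 1.88 at 6 months, beside medians over all genes of 0.980 and 0.977. Counting intervals lay above 1 for 4 of the 5 at each age, all but Ly6d.

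A ratio above 2 was used to count a gene as higher and one below 0.5 as lower, with no p, since there was 1 library a group. At 2 months 3 of the 5 relatives, Ly6a, Ly6c2 and Ly6e, were above 2 and 0 were below 0.5, where 16.4% of all genes compared were above 2 and 23.0% were below 0.5. At 6 months 1 of the 5, Ly6c1, was above 2 and 0 were below 0.5, where 16.0% of all genes were above and 25.7% were below. Psca was past the mark at both ages, as the rule that chose it required, and 0 of the 5 relatives were, where 7.12% of 14781 genes were above 2 at both ages. That count depended on the setting. With the GC trend subtracted, Ly6a (3.95 and 2.34) and Ly6c2 (2.71 and 2.20) were above 2 at both ages, which made 2 of the 5 relatives at 2 months, 3 of the 5 at 6 months and 2 of the 5 at both. With the mean of the 2 controls as the base, Ly6a (2.48 and 2.43) was above 2 at both ages.

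**Figure D1:**
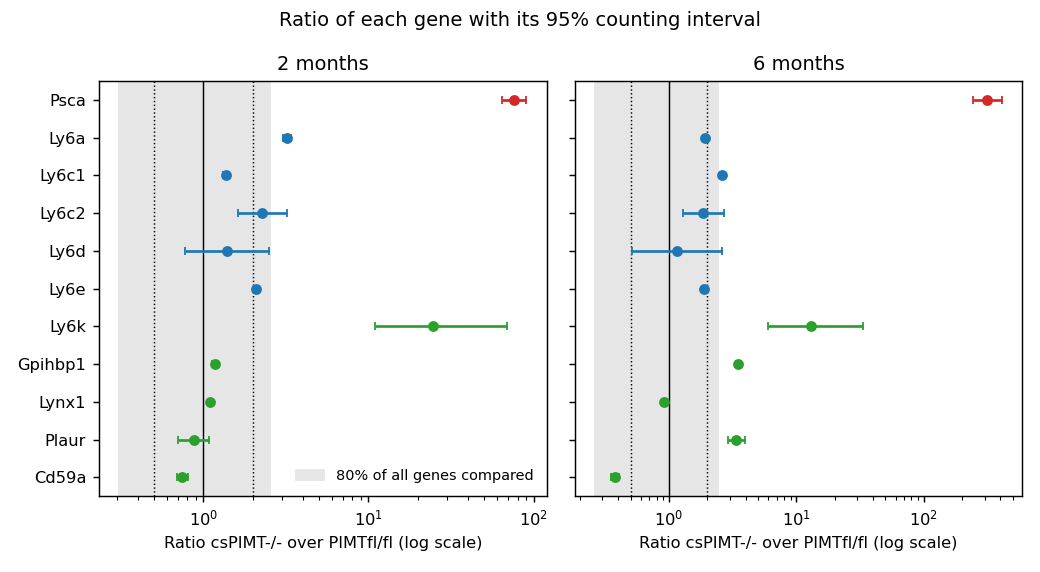
Ratio of csPIMT-/- over PIMTfl/fl hearts (log axis) at 2 months (left) and 6 months (right) for Psca (red), the 5 Ly6 relatives (blue) and the other family members with at least 100 reads in a library (green). Points are ratios, bars are 95% counting intervals, the grey band spans the 10th to the 90th percentile of all genes compared, and dotted lines mark 0.5 and 2. Psca lies at 75.7 and 313, while the 5 relatives lie between 1.15 and 3.23.

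A fit over both ages, with age and genotype as terms and all 4 libraries, was used to ask which relatives differed by genotype beyond the departure of the 2 ages from one another. It had 1 residual degree of freedom, and its spread was shared among genes by limma. By this fit, at an adjusted p below 0.05 over 14933 genes, 3 of the 5 relatives were higher (Ly6a, Ly6c1 and Ly6e) and 0 were lower, where 12.2% of all genes were higher and 18.6% were lower. None of the 3 calls held in every setting. All 3 were lost once the GC trend was subtracted, when 0 genes in all were called by limma and 3501 had an unadjusted p below 0.05. The log2 effects themselves were then 1.62 for Ly6a and 0.98 for Ly6c1, no smaller than without that step, and 0.43 for Ly6e.

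Ly6a encodes Sca-1, an interferon-inducible surface marker of progenitor cells and of vessel endothelium. Its reads numbered 1838 and 2983 in the control hearts at 2 and 6 months, and 4252 and 4959 in the csPIMT-/- hearts. Both csPIMT-/- libraries exceeded both controls, and the 2 csPIMT-/- libraries had nearly the same normalized count, 5242 and 5159, while the controls had 1590 and 2623. The ratio was 3.23 (3.06 to 3.41) at 2 months and 1.92 (1.83 to 2.01) at 6 months. Exchanging the 2 controls turned these into 1.93 and 3.18, so the order of the ages followed the controls. The genotype effect was 1.34 ± 0.26 (SE) on the log2 scale (limma adjusted p = 0.018). It stayed below 0.05 in 8 of 14 settings, and the call was lost when any one of the 4 libraries was left out, with log2 effects from 0.98 to 1.70.

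Ly6e is a broadly expressed member that affects the entry of viruses into cells. It had 4283 and 3942 reads in the control hearts and 6431 and 6429 in the csPIMT-/- hearts. The groups did not overlap, and each genotype held almost the same level at both ages, with normalized counts of 3706 and 3467 against 7929 and 6688. The ratios were 2.10 (2.02 to 2.18) and 1.88 (1.81 to 1.96), on either side of the mark of 2. The genotype effect was 1.02 ± 0.21 on the log2 scale (limma adjusted p = 0.020). Ly6e was the relative most affected by the GC trend, with ratios of 1.42 and 1.26 and an effect of 0.43 (limma adjusted p = 0.23) once it was subtracted.

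Ly6c1 is strongly expressed by microvascular endothelium, and Ly6c2 is best known from inflammatory monocytes. Ly6c1 had 5618 and 4335 reads in the control hearts and 5520 and 9711 in the csPIMT-/- hearts, which is 4861, 3813, 6806 and 10103 as normalized counts. The library of csPIMT-/- hearts at 6 months stood above the other 3, while at 2 months the normalized counts were closer. The ratio was 1.37 (1.32 to 1.42) at 2 months and 2.58 (2.49 to 2.68) at 6 months, and the genotype effect was 0.94 ± 0.27 on the log2 scale (limma adjusted p = 0.047). That call was close to the threshold and was made in 7 of 14 settings, with an adjusted p of 0.060 by edgeR.

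Ly6c2 was about 2 orders of magnitude weaker per kilobase of transcript. Its reads numbered 58 and 51 in the control hearts and 94 and 82 in the csPIMT-/- hearts, so both csPIMT-/- libraries were above both controls. The ratios were 2.26 (1.61 to 3.20) and 1.85 (1.29 to 2.68). The genotype effect of 1.05 ± 0.50 on the log2 scale did not pass the test (limma adjusted p = 0.16). Ly6c1 had 96.9, 85.0, 58.7 and 118 times the reads of Ly6c2 in the control libraries at 2 and 6 months and the csPIMT-/- libraries at 2 and 6 months. The 2 genes therefore did not keep one ratio, although shared 50-base stretches limit how far they can be told apart.

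Ly6d, known from keratinocytes and from early B cells, was near the limit of detection. It had 26 and 14 reads in the control hearts and again 26 and 14 in the csPIMT-/- hearts. The libraries of the 2 genotypes overlapped. Its ratios of 1.40 (0.779 to 2.50) and 1.15 (0.509 to 2.61) included 1 at both ages, and a difference was not detectable at this depth. Its genotype effect was 0.35 ± 0.71 on the log2 scale (limma adjusted p = 0.72).

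Levels were compared between genes as normalized counts per kilobase of transcript. In the control hearts at 2 months the order was Ly6c1 at 5760, Ly6a at 1665, Ly6e at 1625, Psca at 138, Ly6c2 at 61.1 and Ly6d at 30.2. Ly6a and Ly6e, whose counting intervals overlapped, could not be ordered there, and neither could Psca and Ly6c2 in the control hearts at 6 months, at 59.3 and 54.6. In the csPIMT-/- hearts Psca had the highest value at both ages, at 10648 and 19035, above Ly6c1 at 8064 and 11970. Full transcript lengths were used, although 36.7% of the 50-base stretches of Ly6c1 and 0% of those of Psca occur in another gene. The order of Psca and Ly6c1 is therefore uncertain. The order of Ly6c1, Ly6a, Ly6e, Ly6c2 and Ly6d among themselves was the same in all 4 libraries, apart from the overlap of Ly6a and Ly6e.

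**Figure D2:**
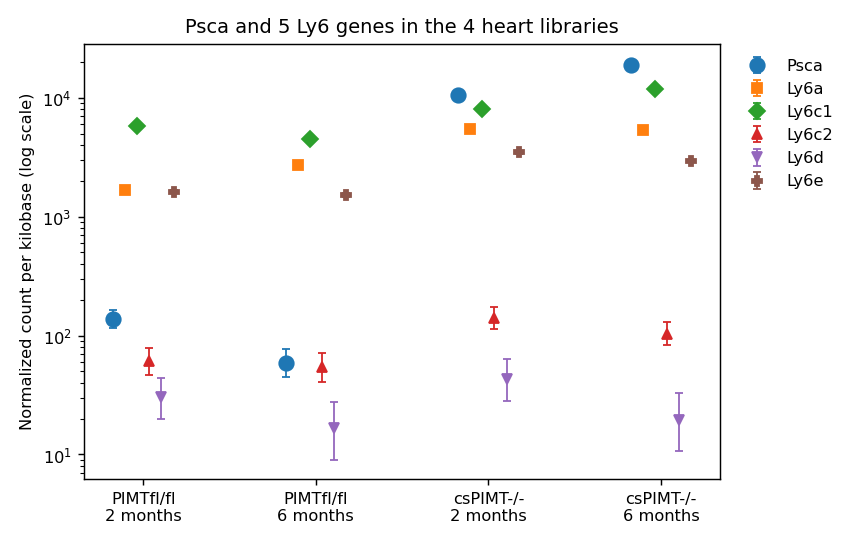
Normalized count per kilobase of transcript (log axis) of the 6 genes in the 4 libraries, 1 library a group; bars are 95% Poisson counting intervals, which are smaller than the symbols for the stronger genes. Psca passes from 138 and 59.3 in the PIMTfl/fl hearts to the highest value of the set in the csPIMT-/- hearts, while the other 5 keep their order. Lengths were not corrected for stretches shared between genes, so the order of Psca and Ly6c1 in the csPIMT-/- hearts is uncertain.

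Between the 2 control libraries, which differ in age, Psca at 6 months was at 0.411 (0.297 to 0.563) of its level at 2 months. It was 1 of 6 members below 0.5, where 5.21% of all genes were, and 0 of the 6 were above 2, where 8.15% of all genes were. Ly6a went the other way, with a ratio of 1.58 (1.49 to 1.67) for 6 over 2 months. In the csPIMT-/- hearts the same ratio was 1.74 (1.69 to 1.79) for Psca, 1.44 (1.40 to 1.49) for Ly6c1 and 0.957 (0.918 to 0.997) for Ly6a.

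The wider Ly6/uPAR family was mostly silent in these hearts. Of 34 further members listed, 31 were found by symbol, and 10 of these had 0 reads in all libraries. At 2 months 10 could be compared, with 5 above 2 and 0 below 0.5 and a median ratio of 1.55, beside 16.4% and 23.0% of all genes. At 6 months 10 could be compared, with 5 above 2, 2 below 0.5 and a median of 2.18, beside 16.0% and 25.7% of all genes. Some of those above 2 reached 10 reads only in the csPIMT-/- library. At 2 months these were Ly6i (5 control and 12 csPIMT-/- reads), Ly6g6d (8 and 12) and Ly6k (6 and 106). At 6 months they were Ly6g5b (4 and 16) and Ly6k (7 and 79). Lypd2, below 0.5 at 6 months, reached 10 reads only in the control library (83 and 1). Lypd1, named after its values were seen, had 21 and 25 reads in the control hearts and 76 and 61 in the csPIMT-/- hearts. It was above 2 at both ages, at 5.05 (3.08 to 8.63) and 2.81 (1.74 to 4.68), but did not pass the fit (limma adjusted p = 0.060). In the fit over both ages 1 of 9 was higher and 0 were lower, a share near that of all genes (12.2% higher, 18.6% lower).

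The gene that passed was Ly6k, a GPI-anchored member known from the testis and needed for sperm function, whose left edge on the plus strand lies 82.0 kb after that of Psca. It had 6 and 7 reads in the control hearts and 106 and 79 in the csPIMT-/- hearts, with no overlap. Ly6k reached the minimum of reads for the ratios and the fit only through the csPIMT-/- libraries. Its pass in the fit is therefore no separate support for its higher level there. Its ratios were 24.7 (10.97 to 68.8) and 13.0 (6.03 to 33.4), and its genotype effect was 3.97 ± 0.68 on the log2 scale (limma adjusted p = 0.014). The call was made in 9 of 13 settings. It was lost without the control at 6 months (limma adjusted p = 0.057), without the csPIMT-/- library at 2 months (0.051), without the mean trend (0.063) and with the GC trend subtracted (0.093), while the log2 effect stayed at 3.35 or above. The study listed Ly6k among genes higher at 2 months in these same samples, so this is not independent evidence.

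Among the other 4 members with at least 100 reads, none passed the fit. Gpihbp1, which carries lipoprotein lipase across the capillary endothelium, had 5296 and 4454 reads in the control hearts and 4455 and 13477 in the csPIMT-/- hearts. The csPIMT-/- library at 6 months stood apart, with a ratio of 3.49 (3.37 to 3.61) there against 1.17 (1.13 to 1.22) at 2 months (limma adjusted p = 0.081 over both). Plaur, the urokinase receptor, likewise stood apart in that library, with 224, 225, 140 and 660 reads and ratios of 0.873 (0.702 to 1.08) and 3.38 (2.90 to 3.95).

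Cd59a, an inhibitor of complement attack, was the one with ratios below 1 and intervals below 1 at both ages. It had 2002 and 3398 reads in the control hearts and 1068 and 1106 in the csPIMT-/- hearts. The ratios were 0.745 (0.691 to 0.803) and 0.375 (0.350 to 0.402). With the GC trend subtracted they were 1.27 and 0.712, so the direction turned at 2 months, and the log2 effect went from -0.89 to -0.06. Lynx1, which modulates nicotinic acetylcholine receptors and was the family member with the most reads, had 18822, 16976, 14713 and 13376 reads. Its ratios of 1.09 (1.07 to 1.12) and 0.908 (0.888 to 0.929) were close to 1. Subtracting the GC trend gave 0.723 and 0.599, both below 1.

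The genes next to Psca were examined because the cluster lies in one stretch of the chromosome. Of the 5 nearest on each side, 5 of 10 could be compared at each age. At 2 months 3 of these were above 2 and 0 below 0.5, with a median ratio of 2.73, where 16.4% and 23.0% of all genes were past those marks. At 6 months 2 were above 2 and 1 below 0.5, with a median of 1.77, where 16.0% and 25.7% of all genes were.

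Arc, an activity-dependent gene best known at synapses, lies 42.3 kb before Psca on the other strand. It had 426 and 321 reads in the control hearts and 4092 and 2102 in the csPIMT-/- hearts. The groups were far apart, with ratios of 13.4 (12.1 to 14.9) and 7.55 (6.71 to 8.51) and a genotype effect of 3.35 ± 0.30 on the log2 scale (limma adjusted p = 0.0089). The call for Arc was made in 11 of 14 settings, and was lost without the control at 6 months (0.051), without the mean trend (0.063) and with the GC trend subtracted (0.093). Jrk, a nuclear protein gene, lies 5.52 kb before Psca, also on the minus strand, and had ratios of 2.73 (2.48 to 3.01) and 2.32 (2.10 to 2.57). Subtracting the GC trend gave 1.94 and 1.62, below 2 at both ages.

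Them6, a thioesterase-like gene listed under its RIKEN clone name, lies 4.17 kb after Psca and had ratios of 3.57 (3.16 to 4.04) and 1.77 (1.56 to 2.03). Both Jrk and Them6 passed the fit (limma adjusted p = 0.016 and 0.035), Jrk in 10 of 14 settings and Them6 in 9 of 13. Jrk was lost without the control at 2 months (0.063) or 6 months (0.083), without the mean trend (0.070) and with the GC trend subtracted (0.13). Them6 was lost without the control at 2 months (0.13) or 6 months (0.12), without the csPIMT-/- library at 2 months (0.11) and without the mean trend (0.099). The setting with the GC trend subtracted could not be run for Them6, whose GC content was not known. Farther along, Lypd2 and Lynx1 had ratios below 1 at 6 months, so the genes around Psca did not all move one way. Lypd2, a further family member, had 41, 83, 20 and 1 reads in the control libraries at 2 and 6 months and the csPIMT-/- libraries at 2 and 6 months.

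**Figure D3:**
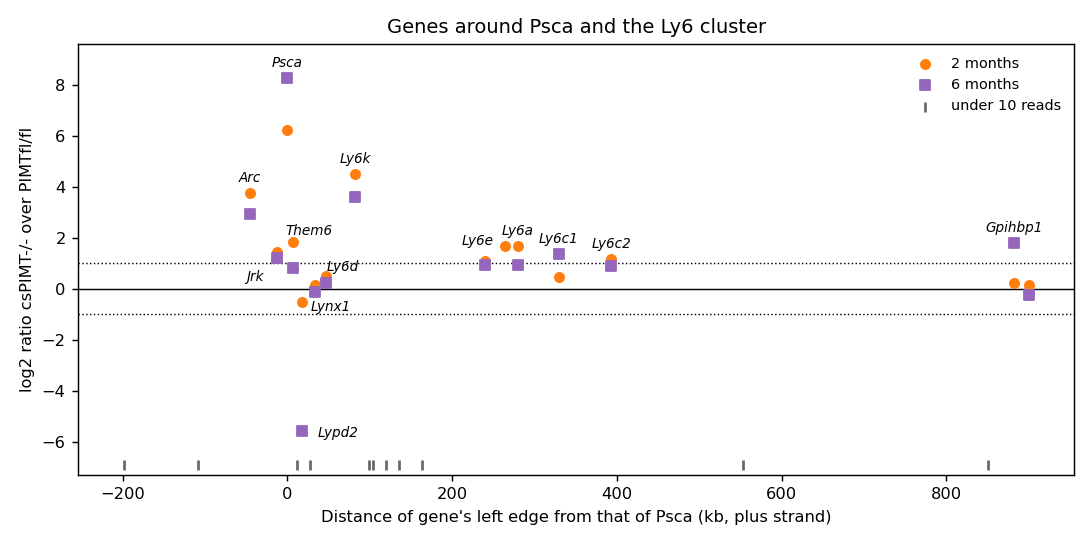
Ratio of csPIMT-/- over PIMTfl/fl (log2) of genes around Psca against the distance of each gene's left edge on the plus strand from that of Psca in kilobases, at 2 months (circles) and 6 months (squares); ticks at the foot are genes with under 10 reads in each comparison and dotted lines mark ratios of 0.5 and 2. Psca, Ly6k and Arc stand highest, Lynx1 between them lies near 0, Ly6d at 0.48 and 0.20, and Ly6e, Ly6a, Ly6c1 and Ly6c2 lie between 0.46 and 1.69 on the log2 scale.

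The pattern of Psca over the 4 libraries was compared with that of 12822 genes having at least 100 reads in a library, by the Euclidean distance between centred log2 levels. The 5 most alike were Slc13a4, a sulphate transporter (distance 3.11), Edn3, the peptide endothelin 3 (3.23), Cxcl14, a chemokine (3.25), Krt18, a keratin of simple epithelia (3.25) and Lman1l, a lectin (3.38). Krt18 was the most abundant of these, with 194 and 174 reads in the control hearts and 1348 and 4813 in the csPIMT-/- hearts, and like Psca it was highest in the csPIMT-/- hearts at 6 months. Of the family, Ly6k ranked 11, whereas Ly6a ranked 832, Gpihbp1 1243, Ly6e 1498 and Ly6c1 1557. Ly6k had at least 100 reads in the csPIMT-/- library at 2 months alone. Slc13a4, Edn3, Cxcl14 and Lman1l likewise reached 100 reads only in csPIMT-/- libraries. None of the 5 nearest genes belonged to the family, and their ratios were all smaller than those of Psca.

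Markers of tissue other than ventricular muscle moved with Psca in part. The 9 markers of epithelium summed to normalized counts of 302 and 298 in the control hearts and 2603 and 5456 in the csPIMT-/- hearts. At 2 months 6 of 6 compared were above 2 and at 6 months 4 of 6, beside 16.4% and 16.0% of all genes. At 2 months Cdh1 (5 control and 13 csPIMT-/- reads) and Krt14 (0 and 15) reached 10 reads only in the csPIMT-/- library. So did Cdh1 (1 and 11) and Cldn4 (0 and 18) at 6 months, both above 2. Most of the sum was Krt18. Epcam, a defining surface marker, had 1 and 1 reads in the controls and 6 and 8 in the csPIMT-/- hearts. Whether epithelial RNA had a part in the level of Psca was not tested.

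Lung epithelium markers were high in 1 library alone. The 8 markers summed to 5.19 and 11.4 in the control hearts, 1237 in the csPIMT-/- hearts at 2 months and 21.8 at 6 months, with 6 and 3 of them at 0 in the control libraries. At 2 months 4 of 4 compared were above 2, and 0 could be compared at 6 months. Those compared, Sftpc, Scgb1a1, Bpifa1 and Scgb3a2, had 0 control reads and reached 10 reads only in the csPIMT-/- library. Their count above 2 was therefore fixed by the minimum of reads. The mesothelium markers summed to 763 and 563 in the control hearts and 2462 and 655 in the csPIMT-/- hearts. At 2 months 4 of 5 were above 2 and 1 was below 0.5, Wt1 at 0.285. At 6 months 0 of 5 were above 2 and 1 was below 0.5, Lrrn4 at 0.474, while Wt1 was at 1.95. Brown fat markers had 3 of 5 above 2 at 2 months, with a median ratio of 191 once 0.5 reads were added to each library. Of these, Adipoq (6 control and 1484 csPIMT-/- reads) and Plin1 (4 and 1286) reached 10 reads only in the csPIMT-/- library. At 6 months 1 of 5 was above 2 and 2 of 5 were below 0.5. Over all genes 16.4% were above 2 and 23.0% below 0.5 at 2 months, and 16.0% and 25.7% at 6 months. The part of lung, mesothelium or fat in the level of Psca was not tested.

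Atrial markers were lowest in the control hearts at 2 months. Their sums were 40742 and 121253 in the control hearts and 334131 and 349424 in the csPIMT-/- hearts. At 2 months 5 of 5 were above 2, beside 16.4% of all genes. Of these, Bmp10 (6 control and 6946 csPIMT-/- reads) reached 10 reads only in the csPIMT-/- library. At 6 months 1 of 5 was above 2 and 3 of 5 were below 0.5, beside 16.0% and 25.7% of all genes. Most of each sum was Nppa, the natriuretic peptide gene that also responds to cardiac load. The other 4 markers summed to 2560 and 50594 in the control hearts and 132951 and 29128 in the csPIMT-/- hearts, so at 6 months they were lower in the csPIMT-/- hearts. Psca was higher in the csPIMT-/- hearts at both ages. A part of atrial tissue in these values was not tested.

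**Figure D4:**
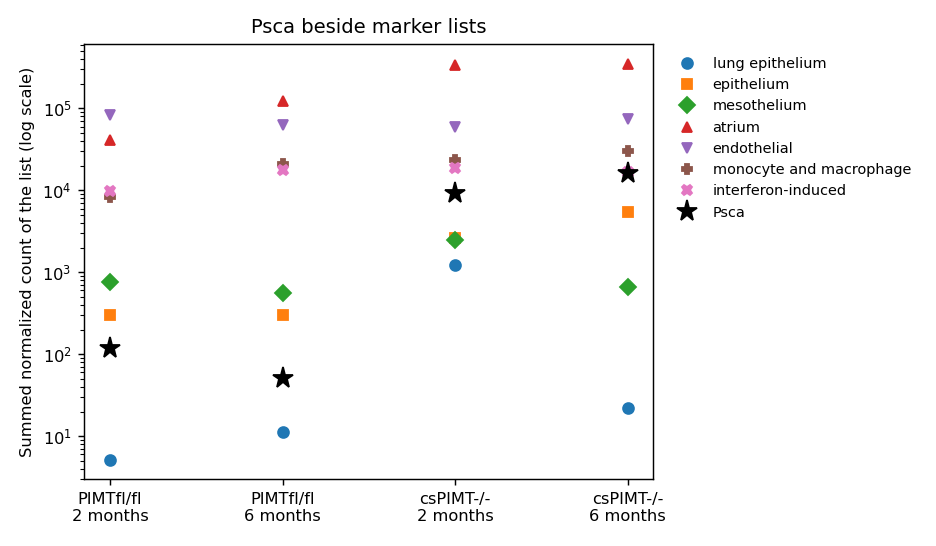
Normalized count of Psca (stars) and summed normalized counts of 7 gene lists (log axis) in the 4 libraries. Psca is higher in the csPIMT-/- hearts at both ages, the lung list is high in the csPIMT-/- hearts at 2 months alone, and the epithelium list is higher in both csPIMT-/- libraries.

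For the Ly6 relatives the lists of vessel and blood cells were read. The 10 endothelial markers summed to 82413 and 61738 in the control hearts and 59753 and 74132 in the csPIMT-/- hearts, with median ratios of 0.658 at 2 months and 1.27 at 6 months. The markers went both ways, from Tek at 0.408 to Egfl7 at 1.18 at 2 months and from Emcn at 0.476 to Cldn5 at 3.16 at 6 months. The 10 markers of monocytes and macrophages summed to 8253, 20765, 23490 and 29943. At 2 months 6 of 10 were above 2 and 0 below 0.5, and at 6 months 2 were above and 2 below. Granulocyte markers had 0 of 3 above 2 and 1 below 0.5 at 2 months. At 6 months 5 of 5 were above 2, with a median ratio of 7.55 once 0.5 reads were added to each library. Of these, Cxcr2 (4 control and 29 csPIMT-/- reads) reached 10 reads only in the csPIMT-/- library. Lymphocyte markers had 1 of 6 above 2 and 1 below 0.5 at 2 months. At 6 months 4 of 7 were above 2 and 2 below 0.5. Of those above 2, Cd79a at 2 months (8 control and 12 csPIMT-/- reads) reached 10 reads only in the csPIMT-/- library. So did Cd3e (1 and 13), Cd3g (9 and 20) and Nkg7 (8 and 14) at 6 months. Ms4a1, below 0.5 at both ages, reached 10 reads only in the control library (52 and 3 at 2 months, 27 and 3 at 6 months). Fibroblast markers had 0 of 7 above 2 and 2 below 0.5 at 2 months, and 2 above and 0 below at 6 months. Over all genes 16.4% were above 2 and 23.0% below 0.5 at 2 months, and 16.0% and 25.7% at 6 months. The part of vessel or blood cells in the levels of the Ly6 genes was not tested. In whole hearts, fewer cells of a type and less RNA per cell cannot be told apart.

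Because Ly6a and Ly6e are known to respond to interferon, a list of 20 interferon-induced genes was read beside them. It summed to 9777 and 17910 in the control hearts and 18605 and 16892 in the csPIMT-/- hearts. At 2 months 10 of 20 were above 2 and 1 was below 0.5, with a median ratio of 2.02, beside 16.4% and 23.0% of all genes. At 6 months 2 were above 2 and 4 below 0.5, with a median of 0.836, beside 16.0% and 25.7% of all genes. The list was mixed at 6 months, with Irf7 at 2.25 and Psmb8 at 2.03 but Ifi44 at 0.178, genes named after their values were seen. The fit over both ages found 6 of 20 higher and 0 lower, beside 12.2% and 18.6% of all genes. A part of an interferon response in the levels of Ly6a and Ly6e was not tested.

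The enzymes that build and attach the GPI anchor, which most family members carry, were counted in the same way. Of 27 such genes, 4 were above 2 and 4 below 0.5 at 2 months, beside 16.4% and 23.0% of all genes. At 6 months 1 was above 2 and 6 below 0.5, beside 16.0% and 25.7% of all genes. Their median ratios were 1.18 and 0.789, and the fit over both ages found 2 higher and 3 lower, beside 12.2% and 18.6% of all genes. These shares were near or below those of all genes.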

How the data were processed

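The 4 deposited files hold one value per gene for each library, a signal that the authors made by dividing read counts by DESeq2 size factors. Reads of 50 bases from directional libraries were aligned by the authors to mm10 with STAR and counted with HTSeq 0.6.1p1. Values were whole multiples of one step in each library, from which 100% were turned back into whole reads within 0.001 reads. Genes were matched to GENCODE release 21 (GRCm38) by symbol, and lengths are those of the longest principal transcript.

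For each ratio the pair of libraries was scaled by the median of ratios, a gene needed 10 reads or more in either one, and intervals were exact Clopper-Pearson 95% counting intervals. Genes past 2 or below 0.5 were counted, without a p. Median ratios, percentiles and the rank of Psca were taken on the log2 scale with 0.5 reads added to each library. A limma 3.58.1 fit (R 4.3.3, trend) of log2(TMM-scaled reads + 1) on age and genotype was run on genes with at least 10 reads in 2 libraries, with Benjamini-Hochberg adjustment. It was tested on simulated data, where it recovered 200 of 200 4-fold changes with 213 calls among 14987 genes. The simulated reads had a fixed spread not taken from these libraries, no effect of age and no GC trend. The weakest genes were left out of the changed ones. Recovery there therefore does not show how the fit behaves on the real libraries. edgeR 4.0.16 and DESeq2 1.42.0 on recovered reads, other pseudocounts, filters and scalings, a GC trend (lowess, span 0.3; GC content known for 89.6% of genes) and leaving out each library were alternatives. Named genes were the 6 members, family members with at least 100 reads in a library, the 5 genes most like Psca and its neighbours; 5 neighbours a side was set after values were seen. Members and lists were chosen with earlier results of these data known.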

Additional observations from a re-analysis of the deposited data

Results flagged for a closer look

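Lynx1 had ratios of csPIMT-/- over PIMTfl/fl on opposite sides of 1 at the 2 ages, 1.09 at 2 months and 0.908 at 6 months, with counting intervals that leave out 1 at each age. The difference between the ages was not tested, since each group was 1 library. With the GC trend subtracted the ratios were 0.723 and 0.599, both below 1, so the opposite sides were not seen in that setting.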

How the results depend on the processing

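Over the ratios of the named genes, 192 of 245 alternative values moved by less than the counting interval, 53 moved by more and 0 changed sides of 1 where counted as higher or lower. Psca ran from 47.9 to 174 at 2 months and from 135 to 321 at 6 months. With the GC trend subtracted, 4 members were above 2 at 6 months. Of 165 alternative genotype effects 122 kept their direction and side of the threshold, 32 lost the call, 4 gained one and 7 changed sign. With the GC trend subtracted the log2 effect was -0.14 for Ly6d and -0.59 for Lynx1. Leaving out each library in turn gave -0.21 to 0.92 for Ly6d, -0.20 to 0.24 for Lynx1 and -0.16 to 1.77 for Plaur. Of 14933 genes 4606 were called, and 149 to 2843 when a library was left out, the lowest without the PIMTfl/fl hearts at 6 months and 1262 without those at 2 months. No gene was called without the mean trend (0, with 5939 at an unadjusted p below 0.05) or with the GC trend subtracted (0, with 3501), while edgeR called 4240 and DESeq2 5148. The cause was not tested. No paired analysis was possible because the libraries carry no replicate numbers. With 1 pooled library a group, differences between mice cannot be told apart from those between genotypes, and Ly6d and Ly6c2 were limited by their low reads.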
